A study of Rattus norvegicus with 2 samples.

Results

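Cortical neural stem cells of the rat were examined here through the cells that carried the largest share of 4 astroglial transcripts, Slc1a3, Gja1, Fabp7 and Ptprz1. A cell was a member if it held at least 5000 unique molecular identifiers (UMIs, each standing for 1 captured RNA molecule), had at most 10% of them from mitochondrially encoded genes, and fell in the top 10% of its own library by the summed UMIs of the 4 genes over all its UMIs. This gave 355 members among 3548 kept cells and 4691 barcodes: 71 of 710 kept cells (842 barcodes) in the vehicle library and 284 of 2838 (3849 barcodes) in the ZD7288 library. They are called high cells below, and were set against the low cells, the kept cells of the same library under the median share, 355 in vehicle and 1419 in ZD7288.

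The cells were commercially supplied primary stem cells from Sprague-Dawley cortex from E14.5 embryos, grown with the growth factor FGF2. One group received 30 µM ZD7288, a blocker of the HCN pacemaker channels, in DMSO at 0.2% for 48 h with fresh medium and compound at 24 h, and the other DMSO alone for the same time. The label of the treated sample spells the compound ZD2788 in one field and ZD7288 elsewhere. Each group is 1 droplet library and no separate cultures are named, so cells were not treated as replicates of a condition and no p-value is given. Every interval is a 95% interval for counting error alone, over UMIs for levels and ratios and over cells for shares of cells. The intervals over cells take the cells of 1 library as independent draws. No interval covers the spread between cultures. The library of a barcode was read from its numeric suffix, which matches the number in the sample title.

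Astroglia arise from radial glia, the stem cells of the developing cortex, and both cell types share many transcripts. Fabp7 encodes the brain fatty acid binding protein of radial glia and young astrocytes, Slc1a3 the glutamate transporter GLAST, Gja1 the gap junction protein connexin 43, and Ptprz1 a receptor phosphatase of glial progenitors. All 4 are made by radial glia and glial precursors as well as by astrocytes, which gain Aqp4, Gfap and Gjb6 as they mature.

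The share of the 4 genes had a single broad peak with a tail to the right in both libraries, as the histogram of the share by library shows. The top 10% began at 0.518% of UMIs in vehicle, with a median of 0.289% over all kept cells, and at 0.372% in ZD7288, with a median of 0.236%. The cells just inside and just outside the threshold held 0.521% and 0.517% in vehicle, and 0.3723% and 0.3721% in ZD7288. A band of 10% of the threshold on either side held 22 members and 32 other cells in vehicle. In ZD7288 it held 98 members and 198 other cells. The cut thus falls within a range of shares. Any rank cut through dense values has cells on both sides, so whether a distinct subset lies among the members stays undecided. The vehicle threshold was reached by 54 of the ZD7288 cells (1.90%, 1.43 to 2.48, exact binomial), and the ZD7288 threshold by 192 of the vehicle cells (27.0%, 23.8 to 30.5). Both sets of high cells are therefore defined by rank, not by a common level.

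**Figure D1:**
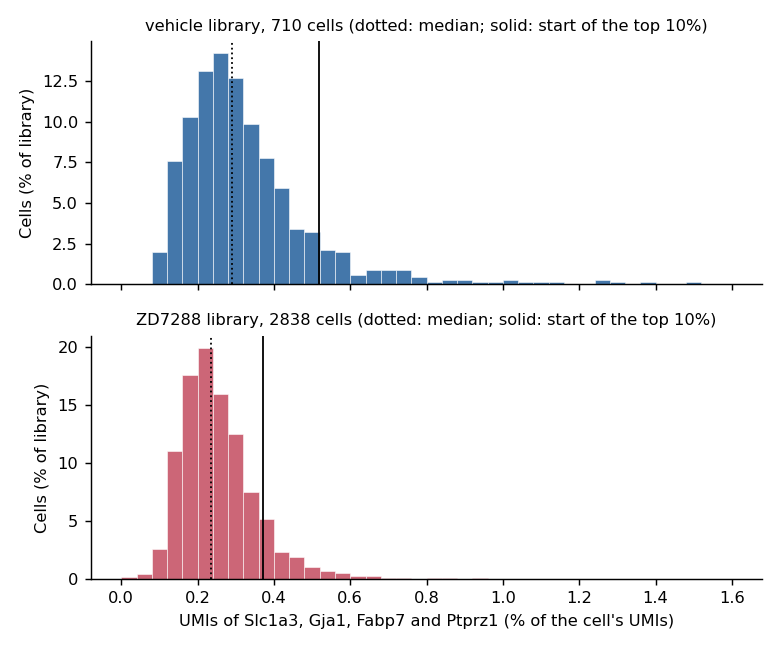
Share of each kept cell's UMIs that came from Slc1a3, Gja1, Fabp7 and Ptprz1 (horizontal axis, percent) against the percentage of the library's kept cells (bars), for the vehicle and the ZD7288 library. The dotted line is the median and the solid line the start of the top 10%, at 0.518% in vehicle and 0.372% in ZD7288, and neither library has a second peak beyond it.

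High cells were shallower than low cells, with a median of 13494 against 18328 UMIs in vehicle and 21416.5 against 24561 in ZD7288. Their median mitochondrial share was 5.61% against 6.07% in vehicle and 5.21% against 4.66% in ZD7288. Doublet scores marked 4 vehicle cells, 0 of them members, and 64 ZD7288 cells, 1 of them a member. The libraries had 3 barcode sequences in common, and 1 of the cells concerned was a member. All levels below are summed UMIs of a group per 1000000 UMIs of that group (CPM), where a pair of values is the high cells first and the low cells second unless stated otherwise. Levels are compared between groups for 1 gene and not between genes.

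Fabp7 carried most of the choice. It stood at 6700 and 1697 CPM in vehicle and at 3951 and 1410 CPM in ZD7288. Slc1a3 stood at 203 and 171 CPM in vehicle and at 416 and 241 CPM in ZD7288, and Ptprz1 at 249.9 and 204 CPM in vehicle and at 199 and 122 CPM in ZD7288. Gja1 stood at 16.8 and 29.5 CPM in vehicle, on 20 UMIs in the high cells, which were the lower group, and at 42.1 and 35.1 CPM in ZD7288. Of all UMIs of the 4 genes in the high cells, Fabp7 made 93.5% in vehicle and 85.7% in ZD7288. Fabp7 alone would have picked 67 of the 71 vehicle members and 246 of the 284 ZD7288 members. These values chose the cells and are given as a description only.

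A rule gene left out of the score can be measured in cells it did not choose. In cells ranked by the other 3 genes, Slc1a3 was 1.09 times (0.950 to 1.26) its level in low cells in vehicle and 1.40 times (1.33 to 1.46) in ZD7288. Ptprz1 was 1.12 times (0.981 to 1.27) in vehicle and 1.45 times (1.36 to 1.55) in ZD7288. Gja1 was 1.95-fold lower (1.23 to 3.30) in vehicle, on 19 UMIs in the high cells, and 1.05 times (0.915 to 1.20) in ZD7288. Fabp7 was 0.996 times (0.963 to 1.03) in vehicle and 1.37 times (1.35 to 1.39) in ZD7288. In ZD7288, 3 of the 4 left-out genes were thus higher beyond counting error, each by less than 1.5-fold, and in vehicle 0 of the 4 were. The 3 genes without Fabp7 picked 14 of the 71 vehicle members (19.7%) and 89 of the 284 ZD7288 members (31.3%).

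**Figure D2:**
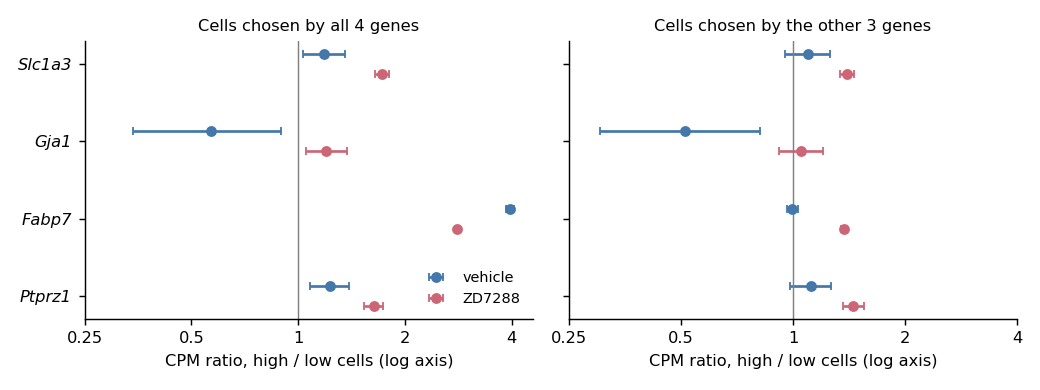
Ratio of CPM in high to low cells (log axis) for the 4 rule genes in cells chosen by all 4 genes and in cells chosen by the other 3, for both libraries; bars are 95% counting intervals. Fabp7 lies at 3.95 in vehicle and 2.80 in ZD7288 when it takes part in the choice, and at 0.996 and 1.37 when it does not.

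The label of astroglia was held against defining markers of mature astrocytes and of other cell types. Gfap, Aqp4, Gjb6 and Ntsr2 had 0 UMIs in the high cells of both libraries, which allows up to 2.52 CPM in vehicle and 0.468 CPM in ZD7288 (3 counts over the group). Slc1a2 was at 0 in the vehicle high cells, and Aldh1l1 in those of ZD7288. The 10 mature astrocyte markers summed to 271 and 155 CPM in vehicle and to 252 and 186 CPM in ZD7288. Aldoc, 1 of the 10, stood at 118 and 24.7 CPM in vehicle and made up most of the difference there. The 10 markers had a median of 1 UMI per cell in all 4 groups, after each cell was thinned to 5000 UMIs. The 10 radial glia markers stood at 4718 and 4834 CPM in vehicle and at 5043 and 5158 CPM in ZD7288, with medians of 20 and 22 UMIs per thinned cell in vehicle and of 23 and 24 in ZD7288. The 4 markers at 0 go against a mature astrocyte, so the cells are called by their rank and not by a cell type.

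Microglial, erythroid, endothelial and ependymal markers were at or near 0. The 8 microglial and 3 erythroid markers in the matrix had 0 UMIs in the high cells of both libraries. The 9 pericyte and fibroblast markers had 0 UMIs in the vehicle high cells and stood at 23.1 and 21.6 CPM in ZD7288. The 6 endothelial markers had 0 UMIs in the vehicle and 4 in the ZD7288 high cells, and the 4 ependymal markers 3 and 11. The neuronal markers summed to a higher CPM in the high cells. Of these 10 genes Neurod1 and Neurod6 were at 0 in the high cells of both libraries, and Dcx, Rbfox3 and Snap25 in those of vehicle. In vehicle 5 of the 10 had a UMI in the high and 8 in the low cells, and in ZD7288 8 and 10. The low groups held more UMIs in all. The 10 genes summed to 210.5 and 159.7 CPM in vehicle and to 239 and 171 CPM in ZD7288. Gap43 alone made up most of the difference in each library. Eomes, Neurog1 and Neurog2, which mark intermediate progenitors, were at 0 in the high cells, and the 5 markers of that class summed to 209.6 and 227 CPM in vehicle and to 252 and 225 CPM in ZD7288.

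Oligodendrocyte precursor markers were also at a larger sum in the high cells. Sox10 and Gpr17, which mark committed precursors, were at 0 in the high cells of both libraries, and Bcan in those of ZD7288. The 8 markers together still summed to 2996 and 2026 CPM in vehicle and to 1571 and 1124 CPM in ZD7288. Only 3 of the 8, Olig1, Olig2 and Cnp, reached 20 CPM in each group, and they made up nearly all of the sum. Per thinned cell the 8 markers had medians of 15 and 10 UMIs in vehicle and of 7 and 5 in ZD7288. Most low cells thus had such UMIs too. The part of the neuronal and precursor markers in the results below was not tested.

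Across all genes, 4873 reached 20 CPM in the higher of the vehicle groups. Of these 656 (13.5%) were at least 1.5-fold higher in the high cells and 200 (4.10%) at least 1.5-fold lower, and a gene is called higher or lower below by the same measure. In ZD7288, 97 of 4739 (2.05%) were higher and 42 (0.886%) lower. The vehicle counts rest on 71 cells with 1192467 UMIs in all and the ZD7288 counts on 284 cells with 6408981 UMIs. A condition added after seeing the data was that the counting interval must not hold 1. With it the counts were 635 higher and 175 lower in vehicle, and 97 and 42 in ZD7288. The median log2 ratio over all genes was 0.13 in vehicle and 0.01 in ZD7288, and with scaling by the median gene ratio the vehicle counts were 430 higher and 336 lower. With the low cells weighted to the high cells over 4 ranges of depth they were 669 and 202. Both libraries shared 58 higher genes, 8.84% of the vehicle set and 59.8% of the ZD7288 set, and 13 lower genes, 6.5% and 31.0%. Among 4457 genes measured in both, 0 were called in opposite directions.

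Most measured astroglial genes outside the rule were higher in the high cells of both libraries. Of 51 such genes in the matrix 24 reached 20 CPM in each library's comparison and the other 27 stayed below it. Of those measured, 16 of 24 were higher in vehicle and 16 of 24 in ZD7288, with 0 lower, beside 13.5% and 2.05% of all genes. Their median log2 ratio was 0.81 in vehicle and 0.72 in ZD7288. The sums of the whole list differed less, at 18483 and 15532 CPM in vehicle (1.19 times) and 18656 and 14134 CPM in ZD7288 (1.32 times). Per thinned cell the list had medians of 90 and 77 UMIs in vehicle and of 90 and 70 in ZD7288. A gene can reach 20 CPM through the high cells alone, and among genes at 20 CPM or more in the low cells the counts were 11 of 19 in vehicle and 12 of 20 in ZD7288, beside 8.28% and 1.23% of all such genes. In cells chosen by Slc1a3, Gja1 and Ptprz1 without Fabp7, 3 of 21 were higher in vehicle (2.63% of all genes) and 8 of 24 in ZD7288 (1.88% of all genes), with 0 lower.

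Aldoc, the brain form of the glycolytic enzyme aldolase and a marker of astrocytes, stood at 118 and 24.7 CPM in vehicle and at 67.4 and 27.5 CPM in ZD7288, ratios of 4.79 (3.84 to 5.95) and 2.45 (2.19 to 2.75). Atp1b2, a beta subunit of the sodium-potassium pump, stood at 39.4 and 14.47 CPM in vehicle and at 51.8 and 24.4 CPM in ZD7288, ratios of 2.72 (1.90 to 3.83) and 2.12 (1.86 to 2.41). Both genes were thus more than 2-fold higher in the high cells of each library. With Fabp7 left out of the score the Aldoc ratios were 1.11 (0.832 to 1.45) in vehicle and 1.31 (1.16 to 1.49) in ZD7288.

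Apoe, the lipid carrier that astrocytes secrete, stood at 10.9 and 2.64 CPM in vehicle and at 42.0 and 12.6 CPM in ZD7288, ratios of 4.13 (1.92 to 8.49) and 3.34 (2.86 to 3.89), on 13 UMIs in the vehicle high cells. Ntrk2, the receptor for the growth factor BDNF, stood at 65.4 and 32.3 CPM in vehicle and at 45.7 and 22.3 CPM in ZD7288, ratios of 2.03 (1.56 to 2.61) and 2.05 (1.79 to 2.35). Sparcl1, a secreted matrix protein of astrocytes, stood at 351 and 190.2 CPM in vehicle and at 291 and 173 CPM in ZD7288, ratios of 1.85 (1.66 to 2.06) and 1.68 (1.599 to 1.77). These 3 secreted or signalling proteins had intervals above 1 in both libraries.

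S100b, a calcium binding protein of glia, stood at 21.8 and 2.99 CPM in vehicle and at 19.2 and 5.15 CPM in ZD7288, ratios of 7.30 (4.07 to 13.1) and 3.73 (2.95 to 4.70), on 26 and 123 UMIs in the high cells. Ttyh1, a membrane protein of glial progenitors, stood at 49.5 and 15.4 CPM in vehicle and at 28.4 and 18.9 CPM in ZD7288, ratios of 3.21 (2.32 to 4.40) and 1.51 (1.27 to 1.77). Cd9, a tetraspanin of glia, stood at 31.0 and 10.5 CPM in vehicle and at 26.7 and 16.2 CPM in ZD7288, ratios of 2.97 (1.97 to 4.39) and 1.65 (1.38 to 1.96), and with Fabp7 left out of the score its vehicle log2 ratio was -0.27. Acsbg1, an acyl-CoA synthetase of astrocytes, stood at 10.1 and 14.47 CPM in vehicle and at 80.0 and 40.1 CPM in ZD7288, ratios of 0.695 (0.350 to 1.26) and 1.99 (1.80 to 2.21), so that it was higher in the high cells of ZD7288 and not in those of vehicle.

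Outside that list, 3 further genes were among those with the largest ratios. Rap1gap, an inhibitor of the small GTPase Rap1, stood at 164 and 51.9 CPM in vehicle and at 54.6 and 10.9 CPM in ZD7288, ratios of 3.17 (2.66 to 3.75) and 5.02 (4.34 to 5.80). Mmd2, a membrane protein of the progestin and adipoQ receptor family, stood at 78.8 and 18.8 CPM in vehicle and at 26.5 and 5.71 CPM in ZD7288, ratios of 4.18 (3.21 to 5.42) and 4.64 (3.78 to 5.71). Cdo1, the enzyme that oxidises cysteine, stood at 103 and 14.2 CPM in vehicle and at 33.9 and 11.8 CPM in ZD7288, ratios of 7.24 (5.60 to 9.37) and 2.86 (2.42 to 3.38). All 3 had their highest level in the vehicle high cells. Without Fabp7 in the score the Mmd2 ratios were 1.12 (0.806 to 1.54) in vehicle and 1.20 (0.937 to 1.53) in ZD7288. Those of Cdo1 were then 1.65 (1.20 to 2.24) in vehicle and 1.26 (1.04 to 1.52) in ZD7288. Rgcc, a regulator of the cell cycle, stood at 15.9 and 5.05 CPM in vehicle and at 24.0 and 10.4 CPM in ZD7288, and in ZD7288 the ratio was 2.32 (1.91 to 2.80). Lyn, a Src-family kinase, stood at 31.4 and 14.1 CPM in ZD7288, a ratio of 2.23 (1.88 to 2.62), and at 17.6 and 14.47 CPM in vehicle, a ratio of 1.22 (0.728 to 1.94).

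Some genes of the oligodendrocyte lineage were higher in both libraries. In this list 4 of 8 measured genes were higher in vehicle and 3 of 7 in ZD7288 (13.5% and 2.05% of all genes), with 0 lower, and the median log2 ratios were 0.64 and 0.50. Among those at 20 CPM or more in the low cells the counts were 2 of 6 and 2 of 6, beside 8.28% and 1.23% of all such genes. Under the score without Fabp7 they were 0 of 8 and 0 of 7 (2.63% and 1.88% of all genes), with medians of -0.027 and 0.0036. Cnp, a myelin enzyme that precursors begin to make, stood at 292 and 102 CPM in vehicle and at 108 and 53.7 CPM in ZD7288, ratios of 2.86 (2.52 to 3.24) and 2.00 (1.83 to 2.18). Sox8, a transcription factor of glial progenitors, stood at 148 and 85.8 CPM in vehicle and at 100.3 and 59.9 CPM in ZD7288, ratios of 1.73 (1.46 to 2.04) and 1.67 (1.53 to 1.83). Without Fabp7 the log2 ratio of Cnp was -0.31 in vehicle and -0.059 in ZD7288, and that of Sox8 was -0.26 in ZD7288. Olig1 and Olig2, which define the lineage, stayed under 1.5-fold, with ratios of 1.41 (1.35 to 1.47) and 1.37 (1.26 to 1.495) in vehicle and of 1.42 (1.38 to 1.45) and 1.20 (1.15 to 1.26) in ZD7288.

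In the Notch pathway list, which holds receptors, ligands and targets, 4 of 7 measured genes were higher in vehicle and 2 of 4 in ZD7288 (13.5% and 2.05% of all genes), with 0 lower. Among those at 20 CPM or more in the low cells the counts were 2 of 5 and 1 of 2, beside 8.28% and 1.23% of all such genes. With Fabp7 left out of the score 1 of 6 were higher and 1 lower in vehicle (2.63% and 1.13% of all genes). In ZD7288 0 of 4 were then higher (1.88%). The receptor Notch1 stood at 85.5 and 46.6 CPM in vehicle and at 28.6 and 16.9 CPM in ZD7288, ratios of 1.83 (1.46 to 2.28) and 1.69 (1.42 to 1.99). Hes6, a helix-loop-helix factor that antagonises Hes1, stood at 161 and 100.1 CPM in vehicle and at 117 and 60.8 CPM in ZD7288, ratios of 1.61 (1.37 to 1.88) and 1.93 (1.77 to 2.09). Of the ligands, Dll1 was 2.65-fold higher (1.87 to 3.72) in the vehicle high cells and 1.96-fold higher (1.58 to 2.42) in those of ZD7288, and Dll3 2.55-fold higher (1.70 to 3.76) and 2.30-fold higher (1.76 to 2.97), with both under 20 CPM in ZD7288. Without Fabp7 in the score the log2 ratios of Dll1 and Dll3 in vehicle were -0.44 and -0.19, and that of Hes6 in ZD7288 was -0.059. Dll1, Dll3 and Hes6 also stand in the intermediate progenitor list, and the counts of these lists are not independent. Id4, an inhibitor of differentiation factors, stood at 33.5 and 19.0 CPM in vehicle and at 42.1 and 21.6 CPM in ZD7288.

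Fewer genes were lower in the high cells of both libraries. Cmtm7, a membrane protein of the MARVEL domain family, stood at 36.9 and 133 CPM in vehicle and at 72.9 and 196 CPM in ZD7288, and was 3.61-fold lower (2.67 to 4.998) in vehicle and 2.68-fold lower (2.44 to 2.95) in ZD7288. Asb4, a substrate adaptor of a ubiquitin ligase, was 2.31-fold lower (1.503 to 3.73) in vehicle and 2.08-fold lower (1.68 to 2.60) in ZD7288. Igfbp3, a secreted binding protein for insulin-like growth factors, was 1.86-fold lower (1.29 to 2.77) and 1.79-fold lower (1.66 to 1.93). With Fabp7 left out of the score the ZD7288 log2 ratios of Asb4 and Igfbp3 were 0.11 and 0.087. Mtus1, a microtubule-associated protein, was 3.72-fold lower (2.15 to 7.06) and 1.61-fold lower (1.43 to 1.81). The 33 measured genes of cytosolic ribosomal proteins summed to 112688 and 130750 CPM in vehicle and to 108284 and 118102 CPM in ZD7288, and 0 of them passed 1.5-fold.

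**Figure D3:**
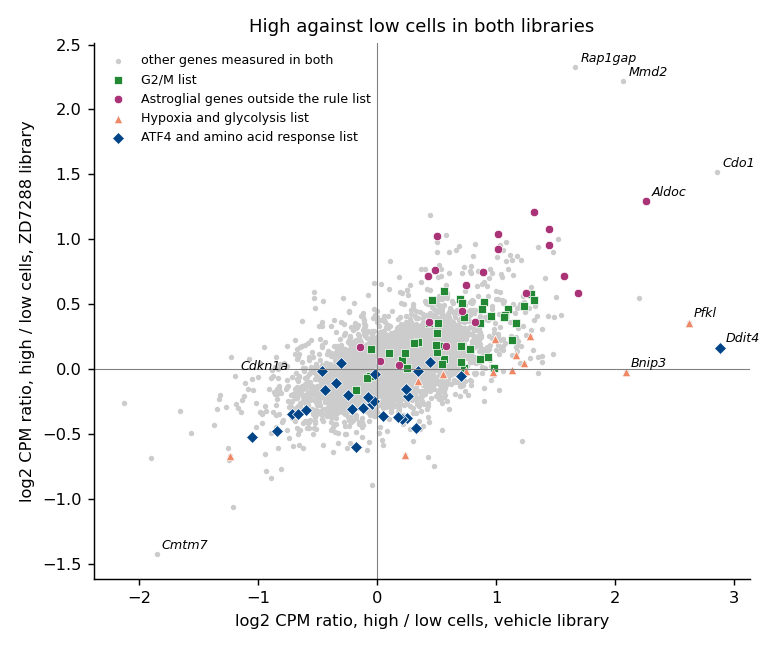
Log2 ratio of CPM in high to low cells in the vehicle library (horizontal) and in the ZD7288 library (vertical), 1 point per gene measured in both, with the rule genes left out and gene lists in colour. Astroglial genes outside the rule lie to the upper right, while genes of the hypoxia and glycolysis list spread along the horizontal axis, with Bnip3 at 2.09 in vehicle and -0.02 in ZD7288; Ddit4 is drawn with the ATF4 list.

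Hypoxia-inducible genes and glycolytic enzymes were higher in the high cells of the vehicle library, with no such difference in ZD7288. Cells short of oxygen, with a stable HIF factor, make more glucose transporter, glycolytic enzymes, Pdk1, which keeps pyruvate out of the mitochondria, and Bnip3, which marks mitochondria for removal. Of 23 such genes in the matrix 18 were measured in vehicle, and 14 of them passed 1.5-fold upwards and 1 downwards (13.5% and 4.10% of all genes). Their median log2 ratio was 1.16. When Fabp7 was left out of the score, the vehicle direction was lost, with 0 of 13 measured list genes higher (2.63% of all genes) and a median of -0.11. With all 4 genes, among those at 20 CPM or more in the low cells the count was 9 of 13, beside 8.28% of all such genes. In ZD7288, the counts were 0 of 13 upwards and 2 downwards (2.05% and 0.886% of all genes), and the median was -0.02. The whole list summed to 8739 CPM (8572 to 8908) in the high and 4559 CPM (4515 to 4604) in the low cells of vehicle, and to 5623 CPM (5565 to 5681) and 5634 CPM (5610 to 5658) in ZD7288.

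Pdk1 stood at 51.2 and 5.86 CPM in vehicle and at 3.43 and 5.07 CPM in ZD7288, ratios of 8.73 (5.92 to 12.9) and 0.677 (0.414 to 1.06). Pfkl, a phosphofructokinase subunit, stood at 132 and 21.6 CPM in vehicle and at 20.3 and 15.8 CPM in ZD7288, ratios of 6.13 (4.93 to 7.62) and 1.28 (1.05 to 1.55). Bnip3 stood at 271 and 63.8 CPM in vehicle and at 61.8 and 62.8 CPM in ZD7288, ratios of 4.25 (3.69 to 4.88) and 0.984 (0.883 to 1.10). For each of these genes the vehicle high cells stood apart from the other 3 groups, which were closer together.

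Slc2a1, the glucose transporter GLUT1, stood at 38.6 and 8.39 CPM in vehicle and at 10.3 and 15.1 CPM in ZD7288, ratios of 4.60 (3.11 to 6.74) and 0.681 (0.519 to 0.879). Ldha, a lactate dehydrogenase subunit, stood at 2456 and 1045 CPM in vehicle and at 1078 and 1041 CPM in ZD7288, ratios of 2.35 (2.25 to 2.45) and 1.04 (1.01 to 1.06). Pgk1, which makes ATP in glycolysis, and Bnip3l, the close relative of Bnip3, had ratios of 2.25 (2.10 to 2.40) and 2.19 (1.95 to 2.46) in vehicle and of 1.08 (1.04 to 1.12) and 0.997 (0.921 to 1.08) in ZD7288. Ddit4, an inhibitor of mTORC1 that both hypoxia and ATF4 can induce, stood at 79.7 and 10.8 CPM in vehicle and at 61.3 and 54.7 CPM in ZD7288, ratios of 7.38 (5.49 to 9.92) and 1.12 (1.00 to 1.25). The log2 ratio in ZD7288 minus that in vehicle was -2.72 for Ddit4, -2.11 for Bnip3, -1.18 for Ldha and -1.06 for Pgk1. Adm, the vasodilator peptide adrenomedullin, ran the other way and was 2.35-fold lower (1.58 to 3.64) in the vehicle high cells and 1.59-fold lower (1.43 to 1.76) in those of ZD7288, where Hk2, a hexokinase, was 1.58-fold lower (1.32 to 1.89).

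The 4 list genes with the largest vehicle ratios, Pdk1, Pfkl, Slc2a1 and Bnip3, were higher together, and the 250 bases before their annotated starts are shown with that of Fabp7, the gene that carried the choice. Sequences are from RefSeq on GRCr8, 5′ to 3′ on the gene's strand, and capitals mark ACGTG or GCGTG on either strand, the core of the hypoxia response element, where overlapping matches run together.
Pdk1, chr3:77113264-77113513, plus strand: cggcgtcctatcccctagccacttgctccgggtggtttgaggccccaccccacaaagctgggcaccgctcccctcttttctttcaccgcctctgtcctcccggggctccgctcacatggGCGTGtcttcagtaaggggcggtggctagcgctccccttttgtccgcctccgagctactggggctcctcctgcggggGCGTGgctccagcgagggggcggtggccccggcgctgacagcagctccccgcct
Pfkl, chr20:10663715-10663964, plus strand: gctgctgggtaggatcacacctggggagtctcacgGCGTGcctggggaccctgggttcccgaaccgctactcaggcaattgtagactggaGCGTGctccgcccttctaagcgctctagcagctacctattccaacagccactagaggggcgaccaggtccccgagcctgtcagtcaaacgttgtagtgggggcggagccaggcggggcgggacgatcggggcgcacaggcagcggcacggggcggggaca
Slc2a1, chr5:138002272-138002521, plus strand: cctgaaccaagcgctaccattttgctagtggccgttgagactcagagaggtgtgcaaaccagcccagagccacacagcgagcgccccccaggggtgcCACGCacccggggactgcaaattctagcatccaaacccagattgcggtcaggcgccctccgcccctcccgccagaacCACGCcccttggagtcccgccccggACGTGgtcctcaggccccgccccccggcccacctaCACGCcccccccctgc
Bnip3, chr1:203154963-203155212, minus strand: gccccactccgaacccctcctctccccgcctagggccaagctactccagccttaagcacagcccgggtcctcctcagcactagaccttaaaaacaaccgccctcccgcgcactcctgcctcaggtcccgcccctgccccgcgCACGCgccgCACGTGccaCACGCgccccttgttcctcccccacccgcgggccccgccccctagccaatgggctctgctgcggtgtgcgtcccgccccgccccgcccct
Fabp7, chr20:37669356-37669605, plus strand: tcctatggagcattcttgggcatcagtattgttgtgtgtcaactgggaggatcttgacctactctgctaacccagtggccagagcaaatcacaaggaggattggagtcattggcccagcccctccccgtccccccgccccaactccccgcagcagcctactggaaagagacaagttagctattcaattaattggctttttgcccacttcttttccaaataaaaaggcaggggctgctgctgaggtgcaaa
Such a match stood in 12284 of 33469 RefSeq windows of this length (36.7%), and in 9 of the 16 list genes with a single window (56.3%). The first share is over all windows and the second over genes, so the sets are unlike. Pdk1 held 2 matches, Pfkl 2, Slc2a1 4, Bnip3 4 and Fabp7 0, each counted on both strands. A match is a description of the letters and not of binding in these cells.

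The vehicle high cells were not alike in these genes. In thinned cells the list gave 12 to 140 UMIs per vehicle high cell, with a median of 36, and 8 to 59 UMIs per vehicle low cell, with a median of 22. In ZD7288 the medians were 28 in the high and 28 in the low cells. Of the 71 vehicle members 40 (56.3%, 44.0 to 68.1, exact binomial) lay above 32 UMIs, the 90th percentile of the low cells. Of the 284 ZD7288 members 25 (8.80%, 5.78 to 12.7) lay above their own low cells' 90th percentile of 37. Of all 138 kept vehicle cells above the vehicle limit 40 were members, where members are 10% of the kept cells. Among the 71 vehicle cells highest in the list 32 were members (45.1%). Among the 284 highest ZD7288 cells 31 were members (10.9%).

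Splitting the vehicle members at that limit showed which other genes went with the list. Pdk1 stood at 5.67 CPM and Bnip3 at 69.9 CPM in the 31 members at or below it, near the low cells, but both are in the list that made the split. Aldoc, which is not in that list, stood at 28.3 CPM (15.9 to 46.7) in these members and at 190.1 CPM (158 to 226) in the 40 above, beside 24.7 CPM in low cells. Ndrg2, a stress-responsive gene of astrocytes, stood at 1.89 CPM on 1 UMI and at 48.3 CPM, beside 2.76 CPM. For Aldoc and Ndrg2 the difference between high and low vehicle cells thus lay in the members above the limit.

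Other genes were higher than in low cells on both sides of the split. Rap1gap stood at 174 CPM at or below the limit and 157 CPM above, beside 51.9 CPM in low cells. Mmd2 stood at 60.4 and 93.5 CPM beside 18.8 CPM, Cdo1 at 47.2 and 148 CPM beside 14.2 CPM, and S100b at 15.1 and 27.2 CPM beside 2.99 CPM. Fabp7 itself stood at 5895 and 7343 CPM. The low cells were also weighted to the high cells over 4 ranges of hypoxia and glycolysis UMIs, an alternative chosen after seeing the data. The vehicle median log2 ratio was then 0.74 for the astroglial list and 0.85 for the hypoxia list. The hypoxia list thus still differed, so the weighting did not make the groups equal in it. The 0.74 is therefore not a value at equal hypoxia counts.

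The remaining genes with the largest vehicle ratios were at low levels outside the vehicle high cells. Ppp1r3c, a subunit that directs a phosphatase to glycogen, stood at 26.8 and 3.33 CPM in vehicle and at 6.40 and 1.68 CPM in ZD7288. Igfbp5, another binding protein for insulin-like growth factors, stood at 57.0 and 12.4 CPM in vehicle and at 26.5 and 18.1 CPM in ZD7288. Nptx2, a secreted pentraxin, stood at 21.0 and 4.82 CPM in vehicle and at 4.21 and 1.76 CPM in ZD7288, on 25 UMIs in the vehicle high cells.

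**Figure D4:**
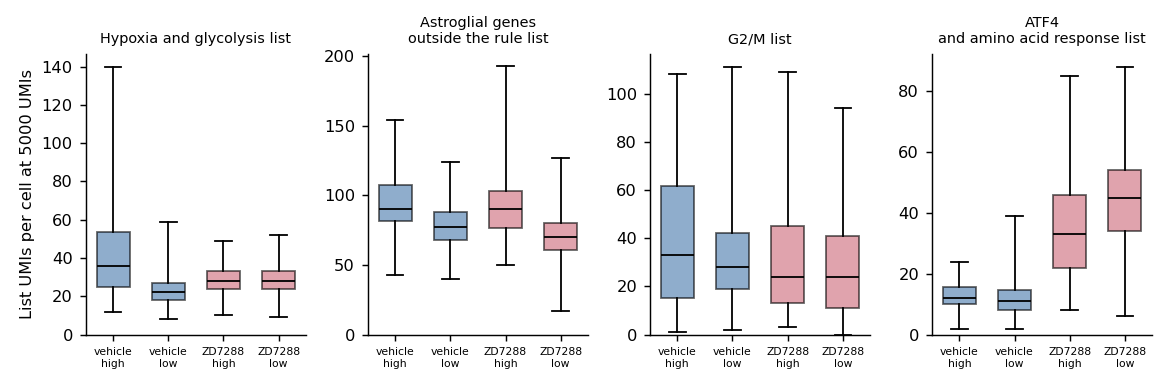
UMIs per cell of gene lists after thinning each cell to 5000 UMIs, for high and low cells of both libraries (boxes: quartiles with the median; whiskers: lowest and highest cell). For hypoxia and glycolysis the vehicle high cells have a median of 36 and reach 140, while the other 3 groups have medians of 22 to 28.

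Many mitotic genes were higher in the vehicle high cells as well. Of 43 measured G2/M genes 23 passed upwards in vehicle and 0 downwards, the median log2 ratio being 0.70, and 1 of 42 was higher in ZD7288, with a median of 0.21. All genes gave 13.5% and 2.05%, so the ZD7288 count was near that of all genes. The score without Fabp7 gave counts of 4 of 43 in vehicle (2.63% of all genes under that score) and 23 of 43 in ZD7288 (1.88%). Cdc20, an activator of the anaphase-promoting complex, stood at 275 and 110.2 CPM in vehicle and at 229.8 and 159 CPM in ZD7288, ratios of 2.50 (2.20 to 2.83) and 1.45 (1.37 to 1.53). Ccnb1, the mitotic cyclin B1, stood at 173 and 70.5 CPM in vehicle and at 113 and 75.6 CPM in ZD7288, ratios of 2.45 (2.08 to 2.87) and 1.496 (1.38 to 1.62), just under the measure in ZD7288. The kinetochore proteins Ndc80 and Nuf2 had ratios of 2.35 (1.77 to 3.07) and 2.24 (1.83 to 2.75) in vehicle and of 1.40 (1.22 to 1.61) and 1.28 (1.17 to 1.40) in ZD7288. In ZD7288 the gene past 1.5-fold was Cenpf, a kinetochore protein, at 164 and 108 CPM, a ratio of 1.52 (1.42 to 1.62).

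Per thinned cell the G2/M list had a median of 33 UMIs and quartiles of 15 and 61.5 in the vehicle high cells, against a median of 28 and quartiles of 19 and 42 in the low cells. The high cells were thus more spread, with a lower first and a higher upper quartile. In ZD7288 the medians were 24 and 24. The low cells were also weighted to the high cells over 4 ranges of cell cycle UMIs. The vehicle median log2 ratio was then 0.33 for the G2/M list and 0.83 for the astroglial list. The G2/M list thus still differed, so the weighting did not make the groups equal in it. In the S phase list 2 of 33 genes were higher and 1 lower in vehicle (13.5% and 4.10% of all genes). In ZD7288 0 of 31 were higher (2.05%). The list had medians of 11 and 11 UMIs in vehicle and of 11 and 10 in ZD7288.

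High hypoxia and high G2/M counts were found both together and apart. Above the low cells' 90th percentile of both lists lay 13 of the 71 vehicle members, of the hypoxia list alone 27, of the G2/M list alone 12 and of neither 19. Among the ZD7288 members the counts were 0, 25, 43 and 216. Cdkn1a, the CDK inhibitor p21, was lower in the vehicle high cells, at 27.7 and 63.3 CPM in vehicle and at 196 and 202 CPM in ZD7288, ratios of 0.437 (0.298 to 0.621) and 0.968 (0.911 to 1.03). Ccnd1, the G1 cyclin D1, stood at 519.9 and 942 CPM in vehicle and at 773 and 765 CPM in ZD7288, ratios of 0.552 (0.508 to 0.599) and 1.01 (0.980 to 1.04). Both turned when Fabp7 was left out of the score, with vehicle log2 ratios of 0.35 for Cdkn1a and 0.12 for Ccnd1. Col4a1, a basement membrane collagen, was 2.59-fold lower (1.96 to 3.49) in the vehicle and 1.35-fold lower (1.22 to 1.498) in the ZD7288 high cells.

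Some of the ATF4 group of stress response genes were lower in the ZD7288 high cells. ATF4 is the transcription factor of the integrated stress response and raises amino acid transport, synthesis and tRNA charging. Of 38 measured genes 8 were below the low cells by that measure and 0 above (0.886% and 2.05% of all genes). Their median log2 ratio was -0.31. This was lost when the score left out Fabp7, with 0 of 38 lower (0.233% of all genes) and a median of 0.074. The list summed to 7159 CPM (7093 to 7225) in the high and 8736 CPM (8706 to 8766) in the low cells of ZD7288, and to 2457 CPM (2369 to 2548) and 2351 CPM (2319 to 2383) in vehicle. Per thinned cell the medians were 33 and 45 UMIs in ZD7288 and 12 and 11 in vehicle, so ZD7288 high cells lay between their low cells and the vehicle cells. In vehicle 2 of 28 list genes were higher, Ddit4 among them, and 5 lower (13.5% and 4.10% of all genes).

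Trib3, a pseudokinase that restrains ATF4, stood at 36.7 and 80.2 CPM in ZD7288 and was 2.19-fold lower (1.91 to 2.51) in the high cells, with 1 and 5 UMIs in the vehicle groups. Cth, an enzyme of cysteine synthesis, stood at 54.6 and 117 CPM in ZD7288, 2.15-fold lower (1.93 to 2.40), and at 5.03 and 3.33 CPM in vehicle. Cebpb and Ddit3, transcription factors of the stress response, were 1.85-fold lower (1.68 to 2.05) and 1.80-fold lower (1.56 to 2.08) in the ZD7288 high cells, and Ppp1r15a, a phosphatase subunit that ends the response, 1.87-fold lower (1.55 to 2.27). Without Fabp7 in the score the ZD7288 log2 ratios of Cth and Ddit3 were 0.048 and 0.0026. Outside the list, Ifi27l2b, of the interferon-inducible Ifi27 family, stood at 44.3 and 95.3 CPM in ZD7288 and had 0 and 8 UMIs in the vehicle groups.

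Levels along the whole range of marker shares show which of these differences were graded. The kept cells of each library were split into deciles, 10 groups of equal size, by share. Fabp7, which set the order, ran from 1034 CPM in the first to 6700 CPM in the last decile of vehicle and from 932 to 3954 CPM in ZD7288. Slc1a3 was at 179 CPM in the first, 290.3 in the fifth and 417 in the last decile of ZD7288, and at 136, 185 and 203 CPM in vehicle. Rap1gap, which had no part in the order, was at 7.37, 13.7 and 54.8 CPM in ZD7288 and at 25.6, 85.8 and 164 CPM in vehicle. Cmtm7 ran the opposite way, at 265, 149.6 and 72.8 CPM in ZD7288 and at 164, 111 and 36.9 CPM in vehicle.

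Hypoxia transcripts in vehicle were highest in the upper end of the range. The list stood at 4076 CPM in the first decile, 4948 in the fifth, 5530 in the eighth, 6844 in the ninth and 8739 in the last, against 5525 in the first and 5620 in the last decile of ZD7288. Cdo1 stood at 31.5 CPM in the ninth and 103 CPM in the last decile of vehicle. The G2/M list stood at 5847 CPM in the ninth and 9047 CPM in the last decile of vehicle, with no ordered course below. The ATF4 list stood at 9036 CPM in the first, 8463 in the fifth and 7143 in the last decile of ZD7288. Median UMIs per cell were 17400 in the first and 13494 in the last decile of vehicle and 25112 and 21397 in ZD7288. With each cell thinned to 5000 UMIs before summing, the median log2 ratio of the hypoxia list in vehicle was 1.28 and that of the ATF4 list in ZD7288 -0.37.

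**Figure D5:**
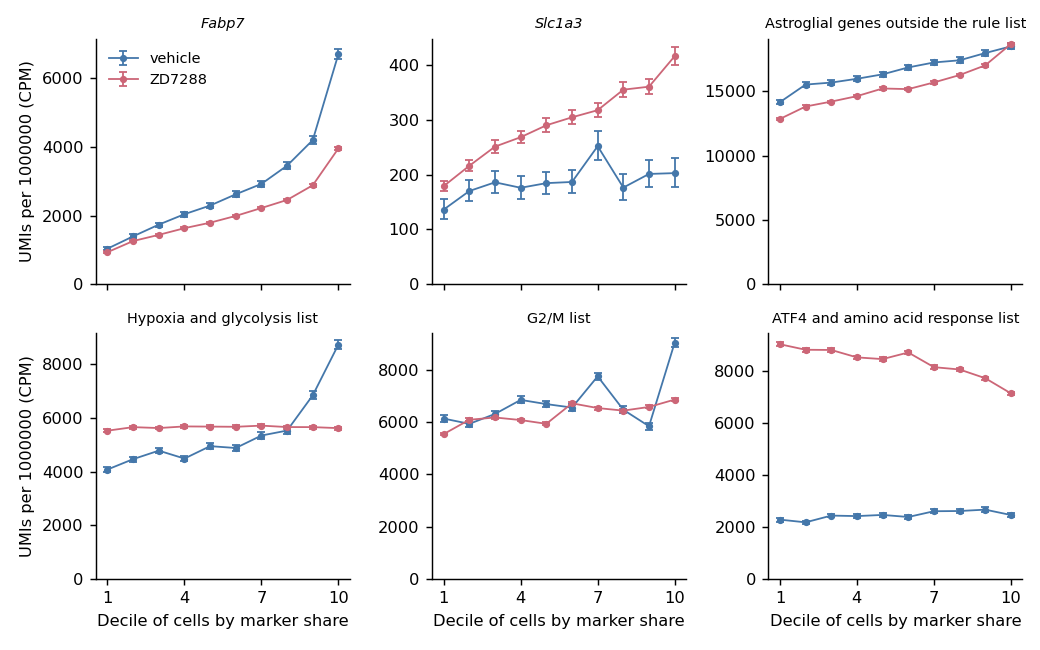
CPM of Fabp7, Slc1a3 and 4 gene lists in deciles of the kept cells ordered by marker share (horizontal), for both libraries; bars are 95% Poisson intervals. The hypoxia and glycolysis list runs from 5525 to 5620 CPM across the ZD7288 library and reaches 8739 CPM in the last decile of vehicle, and the ATF4 list goes from 9036 to 7143 CPM in ZD7288.

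High cells lay together only in part. In 20 principal components made without the 4 rule genes, other high cells made 25.9% of the 15 nearest neighbours of a vehicle high cell (SD over cells 23.1) and 1.26% of those of a low cell, where high cells are 10% of the library. In ZD7288 the shares were 20.5% (SD 17.2) and 3.48%. At least 50% of the neighbours were high cells for 14 of the 71 vehicle and 16 of the 284 ZD7288 members, and none were for 13 and 47. With 30 neighbours in place of 15 the counts at 50% or more were 4 and 9, and with 10 components 15 and 26, and the counts with none were 6 and 14, and 10 and 39. When the hypoxia and glycolysis genes were also left out, which was added after seeing the data, the shares were 26.4% and 20.3%.

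Between the libraries, the high cells of ZD7288 were set against those of vehicle. Of 5007 measured genes 450 (8.99%) were higher in the ZD7288 high cells and 410 (8.19%) lower, and between the low cells 690 of 4803 (14.4%) were higher and 302 (6.29%) lower. Of 37 measured ATF4 list genes 34 stood above vehicle in the high cells and 0 below, the median log2 ratio being 1.68, and between the low cells 37 of 38 were higher, with a median of 1.91. Slc7a3, a transporter of cationic amino acids, stood at 144 CPM in the ZD7288 high cells and had 2 UMIs in those of vehicle, a ratio of 85.8 (23.7 to 709). Slc7a11, the cystine transporter, stood at 56.3 CPM and had 2 UMIs, a ratio of 33.6 (9.23 to 278). Ifi27l2b, with 284 UMIs against 0, was at least 17.6-fold higher, taking 3 counts over the vehicle high cells as its limit.

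The list of CDK inhibitors and quiescence genes was mixed. In the ZD7288 high cells 4 of 13 were higher and 3 lower (8.99% and 8.19% of all genes). The lower ones were Cdkn1c, Cdkn2c and Aldoc. Cdkn1a was 7.07-fold higher (5.01 to 10.3) between the high cells and 3.19-fold higher (2.93 to 3.49) between the low cells. With Fabp7 left out of the score the ratio between the high cells was smaller, with Cdkn1a at 198 CPM in ZD7288 and 67.6 CPM in vehicle. Cdkn2b, the CDK inhibitor p15, was 17.3-fold higher (6.68 to 63.7) on 4 UMIs in the vehicle high cells. Sparc, a matrix glycoprotein, stood at 86.8 CPM in the ZD7288 and 10.9 CPM in the vehicle high cells, 7.96-fold higher (4.62 to 15.04). Hsd11b1, which activates glucocorticoids, had 143 and 2 UMIs, a ratio of 13.3 (3.62 to 111).

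Hypoxia, Notch and oligodendrocyte genes were lower. In the hypoxia and glycolysis list 11 of 18 stood below vehicle in the high cells and 1 above (8.19% and 8.99% of all genes). The median log2 ratio of the list was -0.99. Between the low cells 0 of 13 were lower and 3 higher (6.29% and 14.4% of all genes). With Fabp7 left out of the score 2 of 13 were lower in the high cells and 3 higher (6.97% and 17.2% of all genes), with a median of -0.092. Pdk1 was 14.9-fold lower (9.02 to 25.5), Pfkl 6.53-fold lower (5.15 to 8.30) and Bnip3 4.38-fold lower (3.77 to 5.09). In the Notch list 5 of 7 were lower (8.19% of all genes), with Notch1 2.996-fold lower (2.33 to 3.84). Between the low cells 4 of 5 Notch genes were lower (6.29% of all genes). In the oligodendrocyte precursor list 4 of 8 were lower (8.19% of all genes), and between the low cells 3 of 6 (6.29%). Cnp was 2.71-fold lower (2.38 to 3.09) and Olig1 1.87-fold lower (1.79 to 1.96) between the high cells. Fabp7 itself was 1.70-fold lower (1.65 to 1.74) between the high cells, which it chose by rank within each library.

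Astroglial genes outside the rule differed in both directions between the libraries. In the ZD7288 high cells 6 of 26 stood above vehicle and 6 below (8.99% and 8.19% of all genes). The median log2 ratio was -0.15, and the list summed to 18656 CPM in ZD7288 and 18483 CPM in vehicle. Acsbg1 was 7.95-fold higher (4.51 to 15.5) and Apoe 3.85-fold higher (2.21 to 7.33), while Aldoc was 1.75-fold lower (1.44 to 2.13) and Sox9, a transcription factor of glial fate, 2.24-fold lower (1.92 to 2.60). With Fabp7 left out of the score the log2 ratio of Aldoc was 0.026, and the list's median was 0.091, on 24 measured genes. The metallothioneins went apart, with Mt2A 2.84-fold higher (1.89 to 4.44) and Mt1 2.42-fold lower (1.69 to 3.41). Slc1a3 was 2.05-fold higher (1.80 to 2.35) between the high cells and 1.41-fold higher (1.33 to 1.49) between the low cells, the opposite direction to Fabp7.

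Beside those given above, some more genes with large ratios were read in cells chosen by the 3 rule genes other than Fabp7. Rap1gap in these cells stood at 78.7 and 76.4 CPM in vehicle and at 16.5 and 22.1 CPM in ZD7288, where the high cells were the lower group. Apoe stood at 31.2 and 11.9 CPM in ZD7288, a smaller ratio under this score than under the 4-gene score in that library. S100b stayed higher in the high cells, with ratios of 2.14 (1.13 to 3.91) in vehicle and 3.07 (2.43 to 3.87) in ZD7288.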

How the data were processed

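Droplet (10x) libraries of a vehicle and a ZD7288 culture of rat cortical neural stem cells were used. The deposited matrix holds whole-number UMI counts per gene and cell, with no normalization. Cell Ranger 3.0.2 is named in the submitters' processing notes, with the genome build and barcode rule not given in the sources used here. Cells with at least 5000 UMIs and at most 10% mitochondrially encoded UMIs were kept. The members and gene lists were chosen with earlier results of these data known, and part of the lists came from that earlier work, so no list is independent evidence.

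UMIs were summed per group and scaled to counts per 1000000 (CPM). Ratios have exact Clopper-Pearson and levels exact Poisson 95% intervals, for counting error only. Shares of cells have exact binomial 95% intervals over the cells of 1 library. A gene was measured at 20 CPM in the higher group, and counted as higher or lower at 1.5-fold, with the 4 rule genes left out. For per-cell values each cell was thinned to 5000 UMIs. Doublet scores marked 0.8% of a library per 1000 cells and no cell was removed. Of 728 symbols in 30 lists 704 matched. The ratio script was tested on simulated data.

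Genes were named by rule: the rule genes, the 12 largest and 12 smallest ratios of each comparison, the 6 largest differences between libraries in either direction at 50 CPM or more, and up to 4 genes of each list. Genes outside it (Olig1 and Olig2 against low cells, for example) were named after their values were seen, and some genes it names are not reported here. Alternatives covered the rule, threshold, filters, scaling, depth, cell cycle and doublets. Promoter windows are RefSeq sequences on GRCr8. Python 3.11.15, numpy 2.4.6, scipy 1.17.1, pandas 2.3.3, scanpy 1.11.5 and scikit-learn 1.9.0 were used.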

Additional observations from a re-analysis of the deposited data

How the results depend on the processing

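Over the alternatives, 1879 log2 ratios of named genes stayed within their counting interval, 377 moved beyond it and 29 of those past 1.5-fold had the opposite sign; for the list medians the numbers were 1153, 70 and 2. All of these opposite signs arose with the score of the 3 rule genes other than Fabp7. Under it the log2 ratios were, for Bnip3l -0.12, Ccnd1 0.12, Cd24 0.39, Cd9 -0.27, Cdkn1a 0.35, Cmtm5 -0.46, Cnp -0.31, Ctsd -0.43, Ddit4 -0.52, Dll1 -0.44, Dll3 -0.19, Kcna2 0.44, Ldha -0.11, Pdzrn3 0.27, Pfkl -0.51, Pgk1 -0.18, Pmaip1 0.20 and Slc2a1 -0.24 in vehicle, for Aif1l -0.28, Asb4 0.11, Cnp -0.059, Cth 0.048, Ddit3 0.0026, Hes6 -0.059, Hmox1 0.099, Igfbp3 0.087, Rap1gap -0.42 and Sox8 -0.26 in ZD7288, and for Aldoc 0.026 between the high cells. The vehicle medians, over the genes measured with the 4-gene score, were -0.097 for the Hypoxia and glycolysis list and -0.027 for the Oligodendrocyte precursor list.

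The main counts were 656 higher and 200 lower in vehicle, 97 and 42 in ZD7288, and 450 and 410 between the high cells, and those that moved by over 1.5 times follow. With 2-fold in place of 1.5-fold they were 175 higher in vehicle, 35 lower in vehicle, 15 higher in ZD7288, 5 lower in ZD7288, 170 higher between the high cells and 124 lower between the high cells. With a floor of 50 CPM they were 264 higher in vehicle, 68 lower in vehicle, 38 higher in ZD7288, 26 lower in ZD7288, 222 higher between the high cells and 144 lower between the high cells. With no CPM floor they were 2501 higher in vehicle, 1032 lower in vehicle, 1731 higher in ZD7288, 835 lower in ZD7288, 1352 higher between the high cells and 2126 lower between the high cells. With median gene ratio scaling they were 430 higher in vehicle and 336 lower in vehicle. With cells thinned to 5000 UMIs before summing they were 484 lower in vehicle, 182 higher in ZD7288, 109 lower in ZD7288, 785 higher between the high cells and 649 lower between the high cells. With members chosen on thinned cells they were 56 higher in ZD7288 and 18 lower in ZD7288. With at most 5% mitochondrial UMIs they were 439 lower in vehicle and 804 lower between the high cells. With the top 5% as members they were 479 lower in vehicle, 169 higher in ZD7288, 85 lower in ZD7288 and 796 higher between the high cells. With the top 20% they were 338 higher in vehicle, 87 lower in vehicle, 53 higher in ZD7288, 17 lower in ZD7288 and 273 lower between the high cells. Against all other kept cells they were 61 higher in ZD7288 and 18 lower in ZD7288. With the vehicle threshold in both libraries they were 341 higher in ZD7288 and 186 lower in ZD7288. With the score without Fabp7 they were 123 higher in vehicle, 53 lower in vehicle, 11 lower in ZD7288 and 855 higher between the high cells. The cause was not tested, apart from what the setting itself does: a stricter or no floor tests fewer or more genes, and thinning or fewer members leaves fewer UMIs.

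All other counts stayed within 1.5 times. Changes to the comparison cells or their weights cannot alter the comparison between the high cells, and the vehicle threshold cannot alter the vehicle library, so these have no value. Weighting by hypoxia UMIs, the interval condition, Fabp7 alone and leaving gene lists out of the principal components were chosen after seeing the data. The neighbour shares were recomputed under 30 neighbours, 10 components and those 2 gene removals only, not under the other alternatives. No paired analysis was possible because each group is 1 library. The vehicle ratios rest on 71 members.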

Other observations

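Lists of other functions were counted over genes at 20 CPM or more in the low cells, so that no gene entered through the high cells alone. Of all such genes 8.28% were higher and 4.58% lower in the vehicle high cells, and 1.23% and 0.926% in those of ZD7288. In the lysosome and autophagy list 5 of 21 were higher in vehicle and 0 of 23 in ZD7288, with 0 lower, and with Fabp7 left out of the score 0 of 22 and 0 of 23 measured genes were higher. Ctsd, the protease cathepsin D, stood at 74.6 and 42.4 CPM in vehicle and at 79.6 and 66.7 CPM in ZD7288, and without Fabp7 its vehicle log2 ratio was -0.43. In the NRF2 list 2 of 13 were higher in vehicle and 0 lower, and in ZD7288 1 of 18 and 2. Gsta4, a glutathione transferase, stood at 28.5 and 14.2 CPM in vehicle and at 40.4 and 26.6 CPM in ZD7288, and Hmox1, the haem-degrading oxygenase, at 21.8 and 15.6 CPM in vehicle and at 67.7 and 113 CPM in ZD7288, where without Fabp7 the ZD7288 log2 ratio of Hmox1 was 0.099. Between the high cells 7 of 18 NRF2 genes were higher in ZD7288 (8.99% of all genes), with Nqo1, a quinone reductase, 6.82-fold higher (3.08 to 18.8).

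Growth arrest and signalling lists were short, and in several the share past 1.5-fold was above that of all genes. Of the p53 targets 3 of 13 were lower in the vehicle high cells and 2 of 14 in those of ZD7288, with 0 higher. Of all such genes 4.58% and 0.926% were lower. Pmaip1, the apoptosis regulator Noxa, was 2.38-fold lower (1.46 to 4.14) in vehicle and 1.52-fold lower (1.38 to 1.69) in ZD7288, and without Fabp7 in the score its vehicle log2 ratio was 0.20. Between the high cells 8 of 14 p53 targets were higher in ZD7288 (8.99% of all genes). In the list of CDK inhibitors and quiescence genes 1 of 10 were higher and 2 lower in vehicle, and 3 of 12 and 0 in ZD7288. Of all such genes 8.28% and 1.23% were higher in vehicle and ZD7288. Aldoc and Id3, among the 3 in ZD7288, are also in the astroglial list. In the BMP and ID list 1 of 6 were higher and 1 lower in vehicle and 2 of 5 and 0 in ZD7288. In the list of FGF and ERK feedback 2 of 8, Ccnd1 and Spry4, were lower in vehicle, and 0 in ZD7288. The JAK-STAT list had 1 of 6 and 0 of 7 higher, and the immediate early list 1 of 4 and 1 of 5 lower.

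Structural and metabolic lists give the remaining counts. Of all genes so counted 8.28% were higher and 4.58% lower in vehicle, and 1.23% and 0.926% in ZD7288. In the matrix and adhesion list 2 of 13 were higher and 1 lower in vehicle and 1 of 14 and 0 in ZD7288, and in the connexin and transport list 1 of 10 and 1, and 2 of 12 and 0. Higher counts were 2 of 20 and 0 of 19 for cholesterol synthesis and 1 of 11 and 0 of 10 for lipid transport. In vehicle these shares, 10% and 9.09%, were near that of all genes, as was the 10% of connexin and transport genes. For neuronal genes the higher counts were 1 of 3 and 1 of 3. The gene was Gap43, at 99.8 and 57.1 CPM in vehicle and at 156 and 84.8 CPM in ZD7288. The radial glia list had 2 of 13 higher and 1 lower in vehicle and 1 of 14 and 0 in ZD7288. The lower gene was Cd24, at 209 and 398 CPM in vehicle and at 561 and 702 CPM in ZD7288, and without Fabp7 its vehicle log2 ratio was 0.39. The intermediate progenitor list had 1 of 4 and 1 of 4 higher, and 0 genes passed 1.5-fold among ER chaperones (16 and 17 genes) and mitochondrially encoded genes (12 genes) in either library.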
